A study of Mus musculus with 8 samples.

Results

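The genes described here encode subunits and some assembly factors of the mitochondrial respiratory chain and the ATP synthase, and their promoters were examined for H3K27ac, the acetylated form of lysine 27 on histone H3 that active regulatory DNA carries, in microglia, the resident macrophages of the brain. The members were chosen by name and position: a listed region at most 1000 bp from a transcription start site whose assigned gene symbol starts with Nduf followed by a, b, c, s or v, or with Uqcr, Cox4 to Cox8 or Atp5, or is Sdha, Sdhb, Sdhc or Sdhd. This rule found 83 genes with 135 regions of 800 bp, among 13959 genes with 28204 such regions in all. The rule itself uses names and positions and no measured value. H3K27ac was measured by chromatin immunoprecipitation and sequencing in nuclei sorted from the brains of C57BL/6 mice aged 2 years, which were wild type (WT) or lacked Grn, the gene of progranulin, a secreted glycoprotein that reaches lysosomes (GrnKO). The sort kept nuclei with the myeloid factor PU.1 and without OLIG2, found in oligodendrocyte lineage cells, or NEUN, found in neurons. Each genotype had 2 replicates, each a pool of 2 mice, with an H3K27ac library and an input library (chromatin without immunoprecipitation) per replicate. The design of the knockout allele and the sex of the mice are not given in the sources used here.

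Mitochondria pass electrons from NADH through complex I and from succinate through complex II to ubiquinone, then through complex III and cytochrome c to complex IV, where oxygen is reduced. Complexes I, III and IV pump protons across the inner membrane, and the ATP synthase uses the gradient to make ATP. Complexes I, III, IV and the ATP synthase are built from both nuclear and mitochondrial gene products, whereas complex II is encoded in the nucleus alone. The nuclear genes are expressed in nearly all cells, and the factors NRF1, GABP (an ETS factor), YY1, the estrogen-related receptors (ERR) and Sp1 are known to bind promoters of many of them.

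In the 4 H3K27ac libraries the share of tags in listed regions was 49.4% in WT replicate 1 and between 63.3% and 65.7% in the other libraries, so WT replicate 1 stood apart. Totals ranged from 15491642.5 to 20030832 tags in the H3K27ac libraries and from 4078179 to 14415969 tags in the inputs. Values below are scaled tags, which are tags per 10000000 of a library further divided by a TMM factor, a library correction that ran from 0.825 in WT replicate 1 to 1.08 in both GrnKO replicates. The promoter regions of Grn held 1313 and 1039 scaled tags in the WT replicates and 6.79 and 6.00 in the GrnKO replicates, as the labels have it. Of 10 microglia markers, 9 had a promoter region, with a WT median of 491 scaled tags per region. Summed over 3 neuron markers with a promoter region, the libraries held between 0 and 5.08 scaled tags. The summed level of 6 oligodendrocyte markers was 117 and 66.3 scaled tags for WT, against 87.7 and 74.1 for GrnKO, and that of 4 astrocyte markers was between 190 and 223, nearly all of it at Slc1a3. Of the 2 oligodendrocyte markers tested, Mog had 54.0 and 47.7 in WT and 27.4 and 25.1 in GrnKO (log2 change -0.92, adjusted p = 0.162 by limma), and Mbp had 44.97 and 18.6 against 51.8 and 44.8 (0.71, adjusted p = 0.391). The markers with an adjusted p under 0.05 by limma, against 5.23% of all genes, were Flt1, an endothelial receptor and the only 1 of 5 endothelial markers with a promoter region (12.5 and 31.4 in WT, 144 and 144 in GrnKO), Ms4a7, a marker of border macrophages (37.2 and 29.6 in WT, 132 and 105 in GrnKO), and the microglia genes Sall1 and Tmem119, with log2 changes of -0.52 and -0.51. The 2 other tested markers of border macrophages and monocytes, Mrc1 and F13a1, had log2 changes of 0.07 and -0.12 and overlapped between genotypes. Of the 9 microglia markers, 4 had an unadjusted p under 0.05 in limma's test, all lower in GrnKO (Csf1r, Cx3cr1, Sall1 and Tmem119), against 18.2% of all genes in either direction, and the other log2 changes ran from -0.16 at P2ry12 to 0.22 at Trem2. With the authors' scaling to library totals 0 of the 9 microglia markers passed limma's adjusted threshold and 0 had an unadjusted p under 0.05, edgeR's quasi-likelihood test called Sall1 alone, and without GrnKO replicate 1 neither Sall1, Tmem119 nor Ms4a7 passed. Shifts in the mix of cells and shifts within microglia cannot be told apart in bulk nuclei.

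Promoter sequences of 300 bases, from 250 before to 50 after the start site, were taken from RefSeq (GRCm38.p6, the assembly that mm10 names) and matched 71 of the 83 genes by symbol. For 63 of them the RefSeq start lay within 10 bp of the one that the deposited table uses. An NRF1 motif, GCGCA and GCGC with any 1 base between them, was present in 16 of the 71 promoters (22.5%), against 9.93% of 10815 matched genes of the table and 4.60% of 32851 RefSeq promoters. The core of an ETS motif, CCGGAAG, was present in 17 promoters (23.9%), against 17.2% of the table's genes. The YY1 motif AAGATGGCG was present in 8 promoters (11.3%), against 2.92%. Sp1 boxes, searched as GGGGCGGGG, were present in 12 promoters (16.9%), against 22.7%, and the ERR motif TCAAGGTCA in 1 promoter (1.41%), against 0.25%. None of the 5 motifs was found in 30 promoters (42.3%), against 56.3% of the table's genes. All 5 were searched on both strands, and bases shared by matches of different motifs counted for each. These matches describe letters in a window and not occupied sites.

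The promoters of 6 genes are printed to show how the matches lie, each as the 200 bases that end just before the start site, on the strand of the gene, with matches in capitals. Sdha, the flavoprotein of complex II, and Ndufb4, an accessory subunit of complex I, carried 3 NRF1 matches each. Cox6a1, a subunit of complex IV, carried NRF1 matches at 2 places and 1 ETS match. Atp5j, coupling factor 6 of the ATP synthase, carried a YY1 match followed by an ETS match. Atp5g3, a gene of the c subunit that forms the rotor ring, carried the ERR match, and Atp5e, the epsilon chain of the ATP synthase, an Sp1 and an ETS match.
Sdha, chr13:74350241-74350440, minus strand: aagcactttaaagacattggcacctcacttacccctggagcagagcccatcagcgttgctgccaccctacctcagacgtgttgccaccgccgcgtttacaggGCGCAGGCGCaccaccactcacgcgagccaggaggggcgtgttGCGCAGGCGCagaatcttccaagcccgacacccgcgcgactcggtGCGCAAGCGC
Ndufb4, chr16:37654369-37654568, minus strand: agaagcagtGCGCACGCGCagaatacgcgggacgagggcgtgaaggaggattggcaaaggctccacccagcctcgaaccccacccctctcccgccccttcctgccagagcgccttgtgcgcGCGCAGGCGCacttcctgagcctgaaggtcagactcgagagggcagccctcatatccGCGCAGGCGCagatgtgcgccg
Cox6a1, chr5:115348959-115349158, minus strand: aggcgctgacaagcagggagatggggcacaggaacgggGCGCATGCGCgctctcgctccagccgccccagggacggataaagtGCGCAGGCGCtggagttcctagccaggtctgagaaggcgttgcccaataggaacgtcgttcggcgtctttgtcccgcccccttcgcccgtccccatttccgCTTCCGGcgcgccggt
Atp5j, chr16:84834977-84835176, minus strand: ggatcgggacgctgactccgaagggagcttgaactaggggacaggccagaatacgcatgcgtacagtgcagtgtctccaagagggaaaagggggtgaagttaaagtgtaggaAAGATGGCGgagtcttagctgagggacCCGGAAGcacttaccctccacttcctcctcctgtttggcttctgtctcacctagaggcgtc
Atp5g3, chr2:73911327-73911526, minus strand: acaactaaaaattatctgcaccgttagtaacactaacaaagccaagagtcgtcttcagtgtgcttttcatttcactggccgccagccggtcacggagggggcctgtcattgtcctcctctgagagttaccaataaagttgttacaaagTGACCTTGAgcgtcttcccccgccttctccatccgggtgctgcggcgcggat
Atp5e, chr2:174464102-174464301, minus strand: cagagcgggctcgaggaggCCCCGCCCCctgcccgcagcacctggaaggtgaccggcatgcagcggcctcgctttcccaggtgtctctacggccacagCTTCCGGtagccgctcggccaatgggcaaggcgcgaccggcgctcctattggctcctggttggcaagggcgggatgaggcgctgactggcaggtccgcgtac

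**Figure D1:**
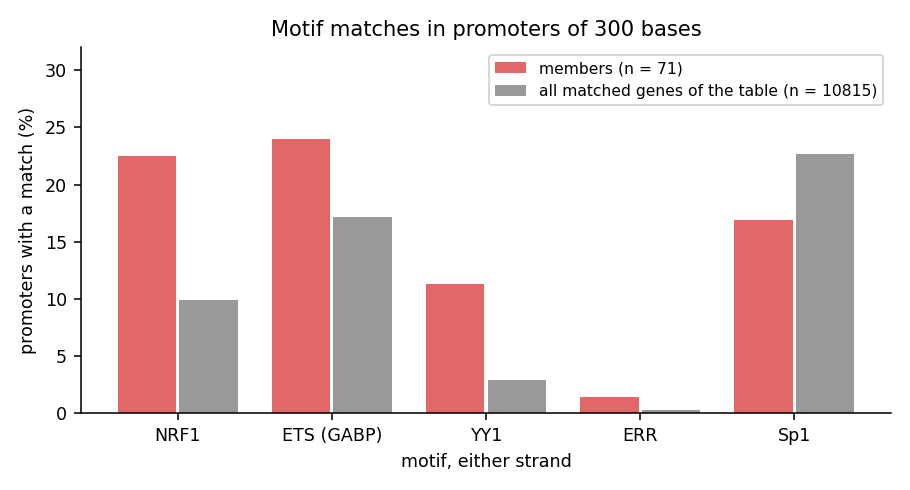
Percent of promoters of 300 bases with at least 1 match of each motif on either strand, for the 71 matched respiratory chain and ATP synthase genes (red) and the 10815 matched genes of the table (grey). The members' bars are higher for NRF1 (22.5% against 9.93%) and YY1 (11.3% against 2.92%) and lower for Sp1 (16.9% against 22.7%).

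Among the 71 genes with a RefSeq start, 20 had the start of another protein-coding gene within 1000 bp, so that tags at these promoters cannot be assigned to one of the pair. Atp5j lay 148 bp from Gabpa, which encodes the DNA-binding chain of GABP, and the regions there were assigned to Atp5j. Sdha lay 77 bp from Ccdc127, Ndufa7 lay 83 bp from the ribosomal protein gene Rps28, and Ndufs3 lay 19 bp from Kbtbd4. Uqcr10 lay 312 bp from Zmat5. Of the 135 member regions, 96 overlapped another listed region, so a tag can count in more than 1 region of a gene.

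The promoters of these genes carried a middling level of H3K27ac. Levels are compared between genes as scaled tags per region of 800 bp, averaged over the regions of a gene. In WT the median over the 83 genes was 31.3 scaled tags per region, against 23.04 over all genes, and 55 of the 83 lay above the latter. None of the 83 was among the top 10% of all genes, and their median percentile was 57.5. By library the median of the 83 was 34.02 and 29.1 for WT, against 28.9 and 28.1 for GrnKO. The median input level of these promoters, as the mean of the 4 inputs in tags per 10000000, was 1.29 per region. Cox7b (14.9 in WT against 12.1 in input), Ndufaf4 (3.25 against 2.84) and Ndufa4l2 (0.196 against 6.26) had under 2 times that input mean. These input means rest on few tags: for Cox7b both WT inputs held 0 and the GrnKO inputs 13.9 and 34.7.

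The highest levels in WT were those of Ndufaf3, a complex I assembly factor, with 131 and 85.8 scaled tags per region in the 2 replicates, of Ndufs8, an iron-sulfur core subunit of complex I, with 104 and 110.1, and of Atp5j with 81.6 and 109.9. The spread between replicates of Ndufaf3 and Atp5j covers the distance between these 3 genes, so their order is not resolved. Atp5l, with 93.6 and 92.2, lay between the replicates of Atp5j, so which genes are the 3 highest is not resolved either. The lowest were Ndufa4l2 with 0.391 and 0, Cox6c, a subunit of complex IV, with 2.93 and 3.27, and Ndufaf4 with 3.00 and 3.49. The replicates of Cox6b2, at 5.67 and 1.57, lie on both sides of Cox6c and Ndufaf4, so which of these 3 is lower is not resolved. By group, the WT median per region was 31.9 for 34 subunits of complex I, 50.4 for 3 of complex II, 30.4 for 8 of complex III, 29.2 for 13 of complex IV and 50.3 for 14 of the ATP synthase. It was 14.3 for the 8 complex I assembly factors with Nduf names, of which Ndufaf2, Ndufaf4, Ndufaf5 and Ndufaf6 all had means under 8 scaled tags per region. Levels within a group spread widely: subunits of complex I ran from 5.94 to 107, of complex IV from 3.103 to 89.8 and of the ATP synthase from 12.8 to 95.8.

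**Figure D2:**
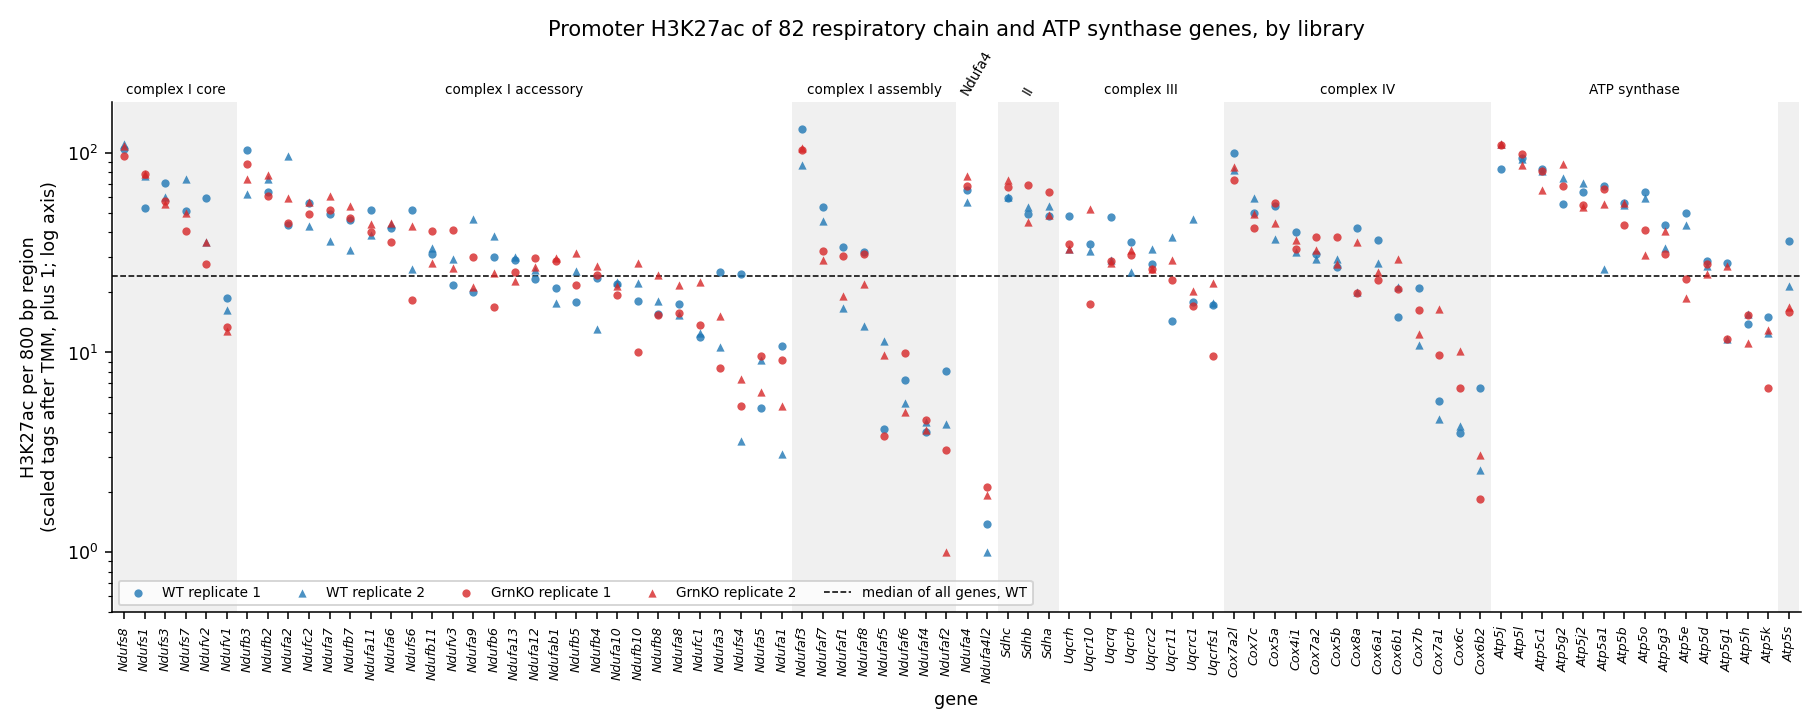
H3K27ac per 800 bp region (scaled tags plus 1, log axis) at the promoters of 82 of the genes, ordered within each complex by their mean, with circles and triangles for replicates 1 and 2 of WT (blue) and GrnKO (red). The dashed line is the WT median of all genes, 23.04 plus 1. Most points of the 2 genotypes overlap, and the lowest means include Ndufa4l2, the complex IV gene Cox6b2 and the assembly factors Ndufaf2 and Ndufaf4.

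Several subunits have isoforms made by separate genes, of which some are known from heart, skeletal muscle, lung or testis. Cox7a1, the heart and muscle form, had 4.69 and 3.67 scaled tags per region in WT, whereas Cox7a2 had 30.1 and 28.3 and Cox7a2l, which helps join complexes III and IV, had 98.7 and 80.9. Cox6b2, known from testis, had 5.67 and 1.57, and Cox6b1 had 14.1 and 20.2. Ndufa4l2, known to be induced by hypoxia, was under 3 tags in every H3K27ac library, while Ndufa4, a subunit now assigned to complex IV, had 64.3 and 55.4. The replicates of each of these pairs did not overlap. Cox4i1, Cox6a1 and Cox8a, the common forms, had 38.9 and 30.9, 35.6 and 26.98, and 40.9 and 19.0. No promoter region was assigned to their partners Cox4i2, Cox6a2, Cox8b and Cox8c. The nearest region assigned to Cox4i2 lay 2550 bp from the start and that of Cox6a2 lay 1442 bp away. The 3 genes of the c subunit of the ATP synthase, whose mature proteins are the same, all carried signal in WT, with 54.2 and 73.6 at Atp5g2, 42.6 and 32.3 at Atp5g3 and 26.98 and 10.7 at Atp5g1. Sdhd, Ndufb9 and Cox7b2 had no region within 1000 bp, and no region at all was assigned to Ndufs5, Ndufb1 or Atp5pb, among others. These genes were not analysed here, so the groups do not cover every subunit.

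No respiratory chain or ATP synthase promoter differed between GrnKO and WT at an adjusted p under 0.05. Tags were summed over the promoter regions of each gene, and 80 of the 83 passed the filter on low values; Cox6b2, Ndufa4l2 and Ndufaf2 did not. In limma's test on log2(value + 1), adjusted by Benjamini-Hochberg over 11084 genes, 5.23% of all genes passed (580, of which 396 were higher in GrnKO, 3.57%, and 184 lower, 1.66%), and 0 of the 80 members did. At an unadjusted p under 0.05 there were 3 members (3.75%), all lower in GrnKO, against 18.2% of all genes. The tested promoter sums of members were lower than those of all genes. By library the median of log2(value + 1) was 5.44 to 5.65 for members, against 5.98 to 6.04 for all tested genes. Whether this lowers the members' shares was not tested. edgeR's quasi-likelihood test and DESeq2 on the recovered read ends also called 0 members, against 4.71% and 6.23% of all genes, with 3 and 2 members at an unadjusted p under 0.05, against 17.4% and 16.2% of all genes. Without WT replicate 1, the library that stood apart, 3 members passed, with 10.3% of all genes: Atp5a1 higher and Ndufa2 and Ndufs7 lower. Without WT replicate 2, Atp5e and Ndufs4 passed, both lower, with 14.6% of all genes. Without GrnKO replicate 1 or 2, 0 members passed, with 1.47% and 2.05% of all genes. Each such fit leaves 1 library in a genotype, so its spread between replicates comes from the other genotype alone and is assumed to hold for both.

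The changes were small and went both ways. The median log2 change was -0.06 over the 80 members and -0.02 over all genes, with 36 members above 0 and 44 below. With the authors' scaling to library totals, which moves the median of all genes to 0.20, the members' median was 0.16, with 56 above 0. The absolute change was under 0.5 for 64 members (80%), against 69.4% of all genes, and at least 1 for 3 members, against 9.61% of all genes. Both GrnKO values lay above both WT values for 12 members (15.0%), against 23.4% of all genes, and below for 16 (20.0%), against 24.6%. A missed threshold does not show equal levels: the 95% interval of the change lay between -1 and 1 for 36 members and reached beyond for 44, with a median distance of 0.74 from the estimate to either end.

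**Figure D3:**
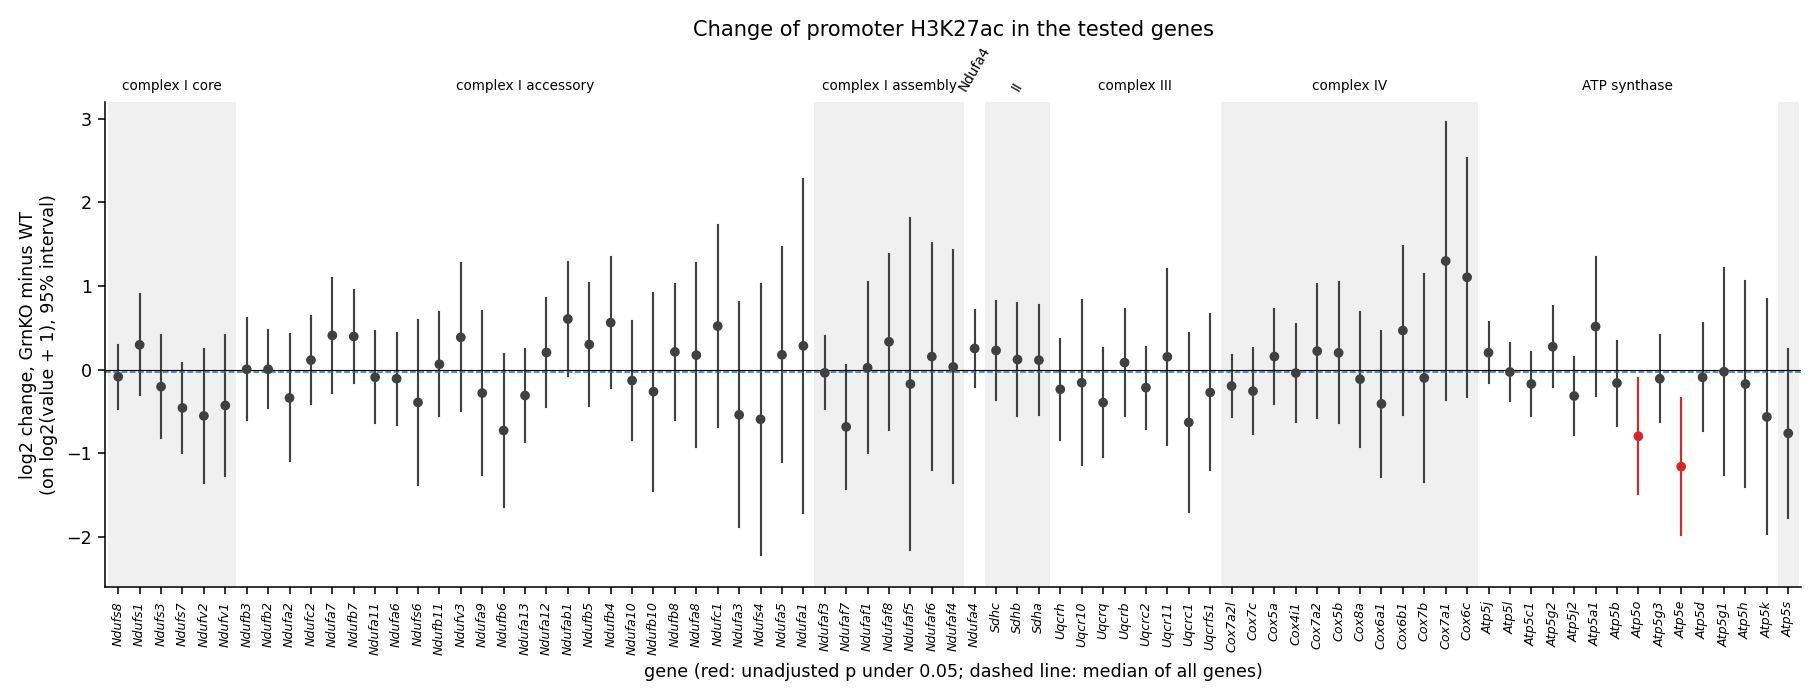
log2 change of promoter H3K27ac (GrnKO minus WT, on the log2(value + 1) scale) with its 95% interval for 79 tested genes, by complex, with the median of all genes as a dashed line. Atp5e and Atp5o, in red, had an unadjusted p under 0.05, and none of the genes drawn passed the adjusted threshold.

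**Figure D4:**
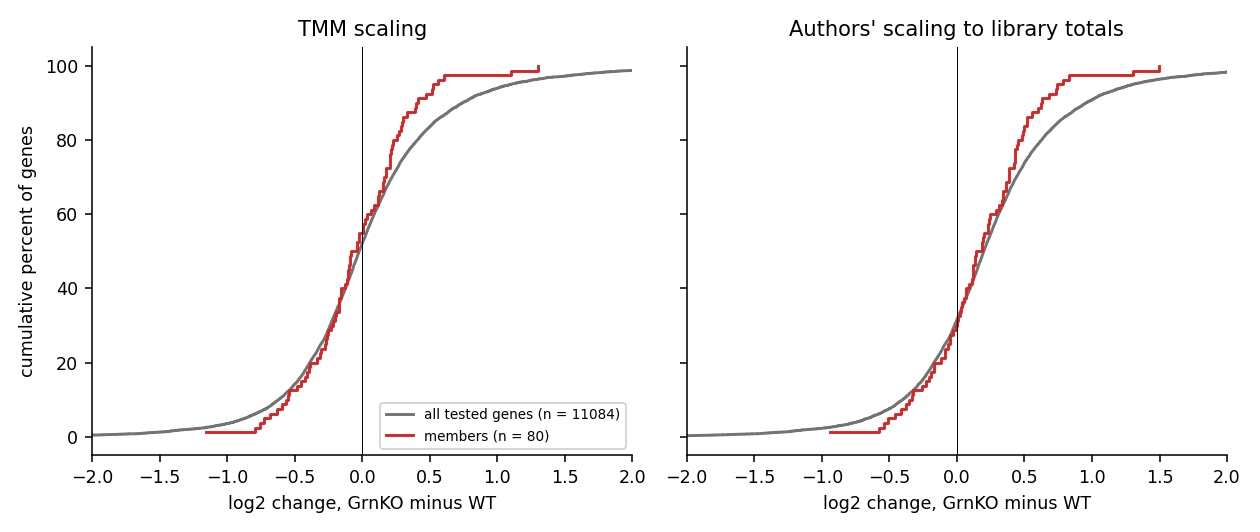
Cumulative percent of genes by log2 change (GrnKO minus WT) for the 80 members (red) and all 11084 tested genes (grey), with TMM scaling and with the authors' scaling to library totals. The members' curve is steeper, with 80% of changes under 0.5 in absolute size against 69.4%, and both curves shift by about the same amount with the scaling.

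Complex I is the entry point for electrons from NADH. Of its 7 tested core subunits, 6 had a log2 change below 0 and 1 above. With the authors' scaling 4 lay below 0 and 3 above, and with either scaling 1 lay above the median of all genes. Ndufs7, which carries an iron-sulfur cluster, had 99.7 and 146 in WT and 78.9 and 97.6 in GrnKO, a log2 change of -0.46 (adjusted p = 0.375 by limma). It was -0.73 (adjusted p = 0.0499 by limma) without WT replicate 1, -0.18 (0.713) without WT replicate 2 and -0.30 (0.900) without GrnKO replicate 1. Ndufs1, the largest core subunit, went the other way, with 52.0 and 76.0 in WT and 77.2 and 77.7 in GrnKO. Ndufv1, which binds NADH, had 35.6 and 30.6 in WT and 24.9 and 23.8 in GrnKO.

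Of 27 tested accessory subunits of complex I, 16 had a change above 0 and 11 below, and with the authors' scaling 19 and 8. With either scaling 16 lay above the median of all genes. The smallest p among those above 0 was that of Ndufab1, the mitochondrial acyl carrier protein, with 40.3 and 33.5 scaled tags in WT and 55.7 and 57.2 in GrnKO. The groups did not overlap, and the log2 change of 0.61 had a 95% interval from -0.08 to 1.29 (adjusted p = 0.349 by limma). Ndufb4, whose 3 NRF1 matches are shown above, had 45.4 and 24.1 in WT and 47.0 and 51.9 in GrnKO. Ndufb7 had 89.9 and 63.1 in WT and 92.8 and 106.8 in GrnKO. At both genes WT replicate 1 lay close under the GrnKO values and WT replicate 2 well under them. Among the assembly factors, Ndufaf7, a methyltransferase, had 52.4 and 44.5 in WT and 31.4 and 28.1 in GrnKO (log2 change -0.68, adjusted p = 0.325 by limma).

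Replicates disagreed at some of these promoters. WT replicate 1 was over 2 times WT replicate 2 at 10 of the 80 members and under its reciprocal at 5, and GrnKO replicate 2 was over 2 times GrnKO replicate 1 at 7 and the reverse at 1. Ndufs4, an accessory subunit whose loss causes Leigh syndrome, had 47.7 and 5.24 in WT and 8.77 and 12.7 in GrnKO, summed over 2 regions. Its log2 change of -0.59 had a 95% interval from -2.21 to 1.03, and its sign depended on which WT library was kept: it was -2.07 without WT replicate 2 (adjusted p = 0.0032 by limma) and 0.89 without WT replicate 1 (adjusted p = 0.582). Ndufa2 had 42.6 and 95.3 in WT and 43.6 and 58.1 in GrnKO, a log2 change of -0.34. It was -0.91 without WT replicate 1 (adjusted p = 0.0434 by limma) and 0.23 without WT replicate 2 (adjusted p = 0.716).

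Complex II oxidises succinate and links the chain to the tricarboxylic acid cycle. Its 3 tested genes, of which Sdha binds FAD, Sdhb holds the iron-sulfur clusters and Sdhc anchors the complex in the membrane, had log2 changes of 0.11, 0.12 and 0.23. Sdha had 47.3 and 53.4 scaled tags in WT and 62.5 and 47.5 in GrnKO, and Sdhb had 48.1 and 52.6 in WT against 68.2 and 44.1 in GrnKO. These groups overlapped. Sdhc had 58.3 and 59.2 in WT and 66.5 and 71.7 in GrnKO, which did not overlap (adjusted p = 0.738 by limma).

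Complex III passes electrons from ubiquinol to cytochrome c. Of its 8 genes, 6 had a change below 0 and 2 above, with a median of -0.22. With the authors' scaling 4 lay on each side of 0, and with either scaling 2 lay above the median of all genes. Uqcrc1, a core subunit, had 16.8 and 45.8 scaled tags in WT and 16.1 and 19.4 in GrnKO, and the log2 change of -0.63 was -1.33 without WT replicate 1 and 0.07 without WT replicate 2. Uqcrfs1, the Rieske iron-sulfur protein, had 32.5 and 33.5 in WT and 17.3 and 42.4 in GrnKO, so the GrnKO values lay on both sides of WT. Uqcrc2, the gene with the most regions, 4, had 107 and 129 in WT and 101.3 and 100.6 in GrnKO.

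Complex IV transfers electrons to oxygen. Its 12 tested genes split evenly, with 6 above 0 and 6 below, whereas with the authors' scaling 10 lay above 0 and 2 below. With either scaling 6 lay above the median of all genes. Cox4i1, the regulatory subunit, had 77.8 and 61.8 scaled tags in WT and 63.6 and 71.5 in GrnKO, and Cox5a had 107 and 72.0 in WT against 110.3 and 87.0 in GrnKO. The largest changes upward among all members were those of Cox7a1, with 4.69 and 3.67 in WT and 8.77 and 15.5 in GrnKO (1.30, 95% interval -0.36 to 2.95), and Cox6c, with 5.87 and 6.55 in WT and 11.3 and 18.5 in GrnKO (1.10, 95% interval -0.32 to 2.53). Both GrnKO values were higher at each gene, but at these low levels the adjusted p was 0.417 and 0.425 in limma's test.

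The ATP synthase turns the proton gradient into ATP. Of its 14 genes, 11 had a change below 0 and 3 above, with a median of -0.13; with the authors' scaling 10 lay above 0 and 4 above the median of all genes. Atp5e, the epsilon chain of the central stalk, had the smallest p of all members: 48.9 and 42.7 scaled tags in WT and 22.3 and 17.8 in GrnKO. The groups did not overlap, and the log2 change was -1.16 ± 0.39 (SE, n = 2 and 2; 95% interval -1.98 to -0.34; adjusted p = 0.104 by limma). Without WT replicate 2 it passed (-1.25, adjusted p = 0.0442 by limma), and without each other library in turn the adjusted p lay between 0.138 and 0.530. It has a single promoter region, chr2:174463718-174464518 of mm10, which spans the sequence printed above. As a single region among 80728, it had an adjusted p of 0.0519 by limma and passed 0.05 under some other settings, among them a pseudocount of 5 (0.0488), array weights (0.0480) and leaving out WT replicate 2 (0.0276). Atp5o, which forms part of the peripheral stalk and is known as OSCP, had 63.0 and 58.1 in WT and 39.9 and 29.8 in GrnKO (-0.79 ± 0.33, SE, n = 2 and 2; adjusted p = 0.203 by limma). Of the alpha, beta and gamma chains of the catalytic head, Atp5a1 had 67.3 and 25.1 in WT and 65.1 and 54.2 in GrnKO, Atp5b had 109.9 and 107 against 85.4 and 110.5, and Atp5c1 had 245 and 239 against 240.1 and 193. Their log2 changes were 0.52, -0.16 and -0.17. That of Atp5a1 was 1.21 without WT replicate 1 (adjusted p = 0.0135 by limma) and -0.18 without WT replicate 2 (adjusted p = 0.766).

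Taken region by region, 123 of the 135 member regions passed the filter, and 0 had an adjusted p under 0.05 in limma's test over all 80728 regions, against 5.18% of the 21707 tested regions within 1000 bp of a start site. At an unadjusted p under 0.05 there were 5 of the 123, against 15.9% of these tested regions. edgeR's quasi-likelihood test and DESeq2 called 0 member regions, but the share they called of all regions near start sites is not given here.

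Some regions farther than 1000 bp from a start site that the table assigns to member genes were higher in GrnKO. The table assigns each such region to the gene with the nearest start, which need not be the gene it acts on. It assigned 173 to 51 of the member genes, and 89 were tested. Of these, 10 (11.2%) were higher in GrnKO by limma's test at an adjusted p under 0.05, against 7.99% of 59015 distal regions, and 0 were lower, against 3.4%. In either direction the background was 11.4%, so the share of these regions that passed is near that of all distal regions. At an unadjusted p under 0.05, 18 of the 89 were higher, against 15.7% of distal regions, and 1 was lower, against 11.1%. edgeR's quasi-likelihood test called 9 higher (7.16% of all distal regions) and DESeq2 called 10 (7.52%), and both called 0 lower, with 1 lower at an unadjusted p under 0.05. The 10 regions lay near 5 genes, and some of them overlap. The count higher in GrnKO was 12 without WT replicate 1, where 12.2% of all distal regions passed in this direction, and 22 without WT replicate 2, where 13.3% did. It was 4 without GrnKO replicate 1 and 5 without GrnKO replicate 2, where 1.73% and 2.19% did.

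The strongest were 2 regions assigned to Uqcr10, a small subunit of complex III, that lie in intron 15 of 19 of Ascc2, a gene of a helicase complex. At chr11:4674338-4675138 (mm10) WT held 15.3 and 7.60 scaled tags and GrnKO 176 and 167, a log2 change of 3.87 ± 0.34 (SE, n = 2 and 2; adjusted p = 3.17e-06 by limma). At chr11:4675811-4676611 WT held 10.6 and 2.62 and GrnKO 155 and 120.4. The promoter of Uqcr10, 29606 bp from the first, had 34.02 and 31.2 in WT and 16.4 and 51.2 in GrnKO and overlapped between genotypes. The promoter sum of Ascc2 had 32.1 and 26.2 in WT and 33.7 and 31.8 in GrnKO.

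A region in intron 3 of 7 of Sdhb itself, at chr4:140971447-140972247 and 10576 bp from the start, had 26.98 and 21.5 scaled tags in WT and 126 and 96.7 in GrnKO (log2 change 2.15 ± 0.29, SE, n = 2 and 2; adjusted p = 0.00014 by limma). Its promoter region had 48.1 and 52.6 in WT and 68.2 and 44.1 in GrnKO. Without each of the 4 libraries in turn, with the spread then taken from 1 genotype alone, the log2 change of the first Uqcr10 region lay between 3.41 and 4.33 and that of the Sdhb region between 1.96 and 2.34. An intergenic region assigned to Atp5g3, 188047 bp away at chr2:74098973-74099773, had 3.13 and 8.90 in WT and 36.5 and 67.6 in GrnKO. Its adjusted p of 0.00145 by limma became 0.161 without GrnKO replicate 2.

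Within Itsn1 lie 5 regions assigned to Atp5o; Itsn1 is a gene of endocytosis. They lay between 79631 and 90508 bp from the Atp5o start and had log2 changes between 0.72 and 1.40. The one of smallest p, at chr16:91848224-91849024, had 77.4 and 64.4 in WT and 183 and 137 in GrnKO (adjusted p = 0.00288 by limma, and 0.19 without GrnKO replicate 1). The log2 change at the Atp5o promoter, -0.79, had the opposite sign and did not pass the threshold. The promoter sum of Itsn1 had 39.5 and 54.7 in WT and 88.5 and 61.1 in GrnKO (adjusted p = 0.285 by limma). A region assigned to Ndufa13, an accessory subunit of complex I, lies in intron 2 of 12 of Gatad2a and had 1.56 and 4.71 in WT and 23.2 and 17.1 in GrnKO (adjusted p = 0.035 by limma, and 0.0918 with no filter on low values). It lost the call without either GrnKO replicate.

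**Figure D5:**
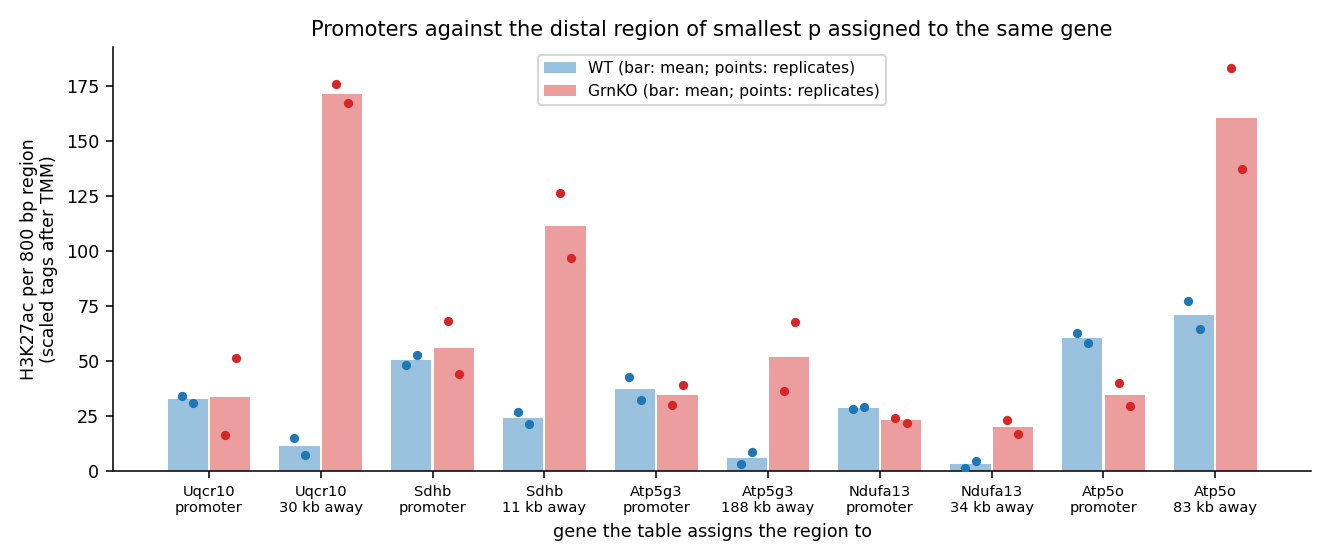
H3K27ac per 800 bp region (scaled tags) at the promoters of 5 member genes and at the distal region of smallest p assigned to each, with bars for the means of WT (blue) and GrnKO (red) and points for the 2 replicates. The distal regions drawn had passed as higher in GrnKO, and their bars rise from 11.4 to 171 for Uqcr10 and from 24.2 to 111 for Sdhb. Promoter values overlap between genotypes at Uqcr10, Sdhb and Atp5g3. Both GrnKO promoter values lie below WT at Atp5o and at Ndufa13 (28.2 and 29.1 in WT, 24.3 and 21.8 in GrnKO).

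No promoter in 4 lists of other genes of the pathway passed the threshold either, against 5.23% of all genes, and the counts at an unadjusted p under 0.05 below stand against 18.2% of all genes. Of 9 tested electron carriers and exchange partners, which include cytochrome c, the ADP/ATP carriers and the outer membrane channels, 0 passed limma's adjusted threshold and 1 had an unadjusted p under 0.05: Vdac1, with 324 and 418 scaled tags in WT and 443 and 531 in GrnKO. Of 30 tested assembly factors outside the name patterns, 0 passed and 6 had an unadjusted p under 0.05. They included Atpaf1, a chaperone of the ATP synthase, with 12.9 and 18.1 in WT and 38.2 and 42.2 in GrnKO (1.34, adjusted p = 0.0848 by limma), and Cox16, with 175 and 195 in WT and 126 and 108 in GrnKO (-0.66, adjusted p = 0.0816). Of 12 tested regulators of respiratory gene transcription, among them Nrf1, Gabpb1, Yy1, Esrra and Tfam, 0 passed and 2 had an unadjusted p under 0.05. These were the PGC-1 family coactivators Ppargc1b, with 113 and 60.8 in WT and 120.2 and 134 in GrnKO, and Pprc1, with 192 and 234 in WT against 277 and 278 in GrnKO. Of 11 tested genes of the tricarboxylic acid cycle, 0 passed and 1 had an unadjusted p under 0.05: Idh3g, a subunit of isocitrate dehydrogenase, with 79.4 and 92.5 in WT and 48.7 and 37.1 in GrnKO (-0.99, adjusted p = 0.0621 by limma). edgeR's quasi-likelihood test and DESeq2 called 0 genes of these 4 lists. With the authors' scaling limma also called 0. Its counts at an unadjusted p under 0.05 were then 1, 5, 2 and 4 for the lists in the order above, against 16% of all genes. Without WT replicate 1, where 10.3% of all genes passed, limma called Cox16, Cox20, Tmem70 and Idh3g lower and Ppargc1b and Suclg1 higher. Without WT replicate 2, where 14.6% did, it called other genes of these lists, namely Vdac1, Atpaf1, Cox17, Cox18, Foxred1, Pprc1 and Idh3b, and without either GrnKO replicate it called 0.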

How the data were processed

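H3K27ac and input libraries were analysed from 1 deposited table of 129304 regions. Its values are a signal: per the file headers, the authors scaled the tags in each 800 bp region to 10000000 per library. The submitters' processing notes name Bowtie2, HOMER, DESeq2 and mm10, with no role stated. Multiplying by the header totals gave whole read ends, at 2 per tag, for 100% of values (tolerance at most 0.0202 ends). The floor of 3 tags is 1.50 to 1.94 scaled tags in the H3K27ac libraries.

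Regions at most 1000 bp from a start were summed per gene. Genes were kept by filterByExpr with a minimum of 10 tags (edgeR 4.0.16). TMM factors came from the 80728 regions kept, and limma 3.58.1 (R 4.3.3; lmFit, eBayes with trend) was fitted to log2(value + 1) with genotype alone, two-sided, Benjamini-Hochberg at 0.05. Fold changes on this scale understate changes of low genes. DESeq2 1.42.0 and edgeR on read ends were alternatives. The scripts were tested on simulated data. Replicate numbers come from the titles; p-values measure the spread between pools.

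The text names up to 5 members per direction by smallest p, core subunits, isoform groups, the 3 highest and 3 lowest in WT, and listed genes past the threshold. Further genes and all distal regions named were picked once their values had been seen. The members and lists were chosen with earlier results of these data known. The values of 1 member are not reported here; it stays in the counts and medians.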

Additional observations from a re-analysis of the deposited data

How the results depend on the processing

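Precision was limited by 2 pools per genotype, of which WT replicate 1 was less enriched, and by promoters of few tags. Replicates differed by more than sampling noise (chi-square per degree of freedom 7.13 in WT and 4.69 in GrnKO). Same-numbered replicates showed little shared deviation (correlation 0.0586 over genes). With 2 replicates per genotype this does not show whether same-numbered pools were collected or processed together. With the replicate block, 983 genes (8.87%) and 0 members passed, and Atpaf1, Cox16 and Idh3g did among the other lists. The Atp5e region was the 1 member region that passed (adjusted p = 0.0273 by limma). With regions at most 500 bp from the start, 337 genes (3.19%) passed, and at an adjusted p under 0.1, 893 genes (8.06%) did. In the contrast with input 0 genes passed. There 7 members (8.75%) had an unadjusted p under 0.05 in limma's test, near the share of all genes (779, 7.03%). Leaving out 1 library at a time gave 163 to 1614 genes, 0 to 1 members higher, 0 to 2 lower, 0 to 3 member regions, 4 to 22 distal regions higher and 0 to 1 lower. A member region also passed with a pseudocount of 5, with array weights and at an adjusted p under 0.1 (1 each). At that last threshold 1 distal region was lower. The share of all regions that passed is not given here for these settings or the replicate block. The members' median log2 change was 0.16 with the authors' scaling, -0.72 in the contrast with input (all genes -0.36) and -0.12 to 0.03 without 1 library. The cause was not tested for any of these. Alternatives for distal regions were chosen after seeing the data.

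The sign of a named member's log2 change turned as follows, and none of the turned values passed the threshold. With the authors' scaling it was 0.18 for Cox4i1, 0.065 for Atp5b, 0.055 for Atp5c1, 0.031 for Cox7a2l, 0.11 for Cox8a, 0.19 for Atp5g1, 0.12 for Atp5g3, 0.14 for Ndufs8, 0.19 for Ndufaf3, 0.011 for Uqcrc2, 0.064 for Uqcr10, 0.12 for Cox7b, 0.020 for Ndufs3 and 0.0018 for Ndufaf5. For Uqcr10 it was also 0.060 by edgeR and 0.072 by DESeq2. In the contrast with input it was -0.85 for Ndufb7, 1.34 for Atp5o, -3.33 for Ndufs1, -0.64 for Sdha, -1.47 for Sdhb, 1.92 for Uqcrfs1, 1.58 for Cox4i1, 0.18 for Atp5c1, -1.30 for Cox7a2, -0.26 for Ndufa4, -1.34 for Atp5g2, 1.42 for Atp5g3, -2.48 for Ndufaf4 and -2.38 for Ndufaf6. Cox8a was at 0.059 with regions at most 500 bp away, with the nearest region and with non-overlapping regions; Ndufaf3 was at 0.0017 with the nearest region and Atp5g3 at 0.28 with non-overlapping regions. Over the fits that left out 1 library each, it ran from -0.080 to 0.31 for Sdha, -0.19 to 0.43 for Sdhb, -1.33 to 0.068 for Uqcrc1, -0.90 to 0.35 for Uqcrfs1, -0.20 to 0.12 for Cox4i1, -0.12 to 0.44 for Cox5a, -0.18 to 1.21 for Atp5a1, -0.34 to 0.025 for Atp5b, -0.66 to 0.43 for Cox8a, -0.65 to 0.60 for Atp5g1, -0.31 to 0.091 for Atp5g3, -0.066 to 0.13 for Ndufaf4, -0.010 to 0.42 for Atp5j, -0.34 to 0.27 for Ndufaf3, -2.07 to 0.89 for Ndufs4, -0.91 to 0.23 for Ndufa2, -0.95 to 0.64 for Uqcr10, -0.57 to 0.37 for Cox7b, -0.91 to 0.57 for Ndufaf5 and -0.37 to 0.68 for Ndufaf6. For single genes and distal regions, 728 other values kept direction and side of the threshold, 15 lost the call and 5 gained it. The alternatives of members named outside the rule were added after their values had been seen.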
